A study of Mus musculus with 2 samples.

Results

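The genes described are 9 regulators of G protein signalling: Rgs1, Rgs2, Rgs3, Rgs10, Rgs11, Rgs14, Rgs16, Rgs18 and Rgs19. They were chosen by symbol, as every probe that the platform annotation pairs with one of these names. The array held 18 such probes for 8 of the genes, out of 25697 probes and 16593 named genes in all. Rgs11, a member of the R7 family known from the retina, was paired with no probe and was not analysed here.

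The cells were splenic regulatory T cells, the CD4 T cells that hold other immune cells in check, sorted as CD4+ CD25+ GITR+ from C57BL/6 mice. The wild-type sample is labelled as male and 6 weeks old, and the Bach2 KO sample as male and 7 weeks old. Bach2 is a basic leucine zipper protein that represses transcription in lymphocytes, and the labels do not say in which cells or how the gene was deleted, nor how many animals gave each sample. RNA was hybridised to Illumina mouse expression arrays, 1 array per genotype, so every difference below is between 2 samples and has no replicate error and no p-value.

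RGS proteins end signals from receptors coupled to heterotrimeric G proteins. They speed the hydrolysis of GTP by the alpha subunit, which then rebinds the beta and gamma subunits. In lymphocytes chemokine receptors signal mainly through the Gi class, and RGS proteins of the R4 family are known to limit how long T and B cells respond to chemokines and move. Rgs1, Rgs2, Rgs3, Rgs16 and Rgs18 belong to the R4 family, Rgs10 and Rgs14 to the R12 family, and Rgs19 to the RZ family.

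Rgs16 is an R4 family member that is induced in activated T cells and acts on Gi and Gq. It was the 1 gene of the set that differed by at least 2-fold. Of all 7611 genes compared, 3.27% were at least 2-fold higher and 1.55% lower. The deposited intensity of Rgs16, background-subtracted and in arbitrary units, was 210.0 in wild type and 532.8 in the knockout. On the series matrix values, described below, its log2 difference was 0.99, just short of 2-fold. Rgs19 lay on the other side, with deposited intensities of 435.8 in wild type and 297.4 in the knockout. The remaining detected genes, Rgs1, Rgs3, Rgs10 and Rgs14, were within 1.5-fold at their brightest probes, and Rgs2 and Rgs18 were not detected on either array.

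The promoter sequences that could be printed show where the RGS genes that were higher in the knockout have, or lack, the core motif bound by Bach2 and AP-1 factors. They are the 250 bases before the annotated start of Rgs16 and of 2 RGS genes outside the set that were also at least 1.5-fold higher, Rgs9 and Rgs12, from RefSeq (GRCm38.p6), written 5′ to 3′ along the gene. Rgs12 has 2 annotated windows. The second is shown because it holds a match, and the first holds none and is not shown. Capitals mark a match to TGANTCA, the core of the AP-1 and Bach2 binding motif, searched on both strands.
Rgs16, chr1:153740103-153740352, plus strand: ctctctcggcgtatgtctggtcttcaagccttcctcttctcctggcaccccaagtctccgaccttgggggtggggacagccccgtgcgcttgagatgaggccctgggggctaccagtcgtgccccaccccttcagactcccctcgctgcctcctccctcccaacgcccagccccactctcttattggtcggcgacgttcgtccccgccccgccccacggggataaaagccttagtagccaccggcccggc
Rgs9, chr11:109298182-109298431, minus strand: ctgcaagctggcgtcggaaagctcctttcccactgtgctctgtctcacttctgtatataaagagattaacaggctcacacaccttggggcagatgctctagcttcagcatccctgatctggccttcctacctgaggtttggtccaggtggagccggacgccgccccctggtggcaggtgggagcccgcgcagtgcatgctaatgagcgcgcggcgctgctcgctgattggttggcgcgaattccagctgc
Rgs12 second window, chr5:34998828-34999077, plus strand: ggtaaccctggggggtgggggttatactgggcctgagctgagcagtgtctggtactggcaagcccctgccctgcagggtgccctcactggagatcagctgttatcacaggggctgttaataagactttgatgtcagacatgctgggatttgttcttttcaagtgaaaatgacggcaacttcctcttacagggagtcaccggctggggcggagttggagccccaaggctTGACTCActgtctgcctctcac
The motif was absent from the Rgs16 and Rgs9 windows and from the first Rgs12 window. In the second Rgs12 window a match began 22 bases before the start. Which of the 2 starts gives the RNA read by the Rgs12 probe was not tested. RefSeq's table held 8 windows for 5 of the 9 genes, namely Rgs2, Rgs3, Rgs10, Rgs16 and Rgs19, and 0 of the 8 held TGANTCA. Of 14 windows of 11 other Rgs genes 3 held it, and besides Rgs12 these were in Rgs17, which was not detected, and in Rgsl1, which had no probe. Of all 32851 windows of this length, 2217 (6.75%) held it. No match says only that these letters are not in these windows.

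The arrays as a whole set the scale for these genes. Probes with a detection p-value under 0.01 counted as detected, and 10431 were in wild type and 10373 in the knockout. Each gene took the value of its brightest such probe, and 7611 genes were compared after normalization to log2 intensity. Where several probes of a gene were detected on both arrays (1734 genes), their log2 differences scattered with an SD of 0.23. This is scatter between probes on the same 2 arrays, and it holds no error between arrays or between samples. Past 1.5-fold, 8.15% of the compared genes were higher in the knockout and 6.77% were lower, and past 2-fold the shares were 3.27% and 1.55%. Of the genes past 1.5-fold, 54.6% were higher, and 66.6% were when the arrays were scaled by their medians. T lineage and regulatory T cell markers were alike on the 2 arrays, with 12 of 12 measured genes detected and 0 past 1.5-fold (median log2 difference -0.05).

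The sex-linked genes went only partly with the male label of the array labelled Bach2 KO. Xist, the RNA of the inactive X chromosome, had intensities of 12.3 in wild type (not detected) and 393.4 in the knockout at its brighter probe. The Y-linked genes Eif2s3y and Kdm5d had 3451 and 826.9 in wild type and 982.8 and 120.0 in the knockout. Eif2s3y and Kdm5d were lower in the knockout but still detected there, beside Xist. Uty, also Y-linked, was detected in wild type only. Whether the knockout sample mixed RNA of male and female animals was not tested. Both samples are labelled male, and every value below compares the library labelled Bach2 KO with the wild-type library. No probe was paired with Bach2, so the deletion itself could not be checked.

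Rgs16 was measured by 1 probe. Its normalized log2 intensity was 7.84 in wild type and 9.09 in the knockout, a log2 difference of 1.25 (2.38-fold higher in the knockout). Among the 7611 genes it ranked 148 from the highest difference, and 98.1% of genes lay below it. In the series matrix, where the authors' values keep a constant of about the background on each array, the same probe read 250.9 and 498.3, and its difference was 0.99, just short of 2-fold.

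Rgs1, an R4 family member that restrains chemokine responses in B and T cells, was detected by all 3 of its probes on both arrays. The brightest probe had intensities of 6328 in wild type and 8476 in the knockout, and the other probes 2187 against 2759 and 2013 against 2718. All 3 probes were higher in the knockout, by log2 differences of 0.30, 0.29 and 0.39. The first is 1.23-fold, short of 1.5-fold, and 82.0% of genes lay below it. Probes of 1 gene share their RNA and are not replicates of the genotype. With median scaling the brightest probe differed by 0.46.

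Rgs3, an R4 family gene with long and short forms that act on Gi and Gq, had 8 probes, of which 2 were detected on both arrays. Of the 8 probes, 6 were annotated to 1 RefSeq transcript and the others to 1 further transcript each. The brightest probe read 516.4 in wild type and 521.2 in the knockout, a log2 difference of -0.01. The second probe, annotated to another transcript, read 147.3 and 179.8, a difference of 0.22. Each of these is smaller in size than the SD of 0.23 between probes, which holds no error between arrays or samples.

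Another 2 Rgs3 probes were detected in the knockout only. One read 37.4 in wild type (detection p-value 0.0113) and 63.2 in the knockout (0.00125), at least 1.42-fold higher, and the other read 29.4 (0.0301) and 58.1 (0.00125), at least 1.33-fold higher. These bounds take the dimmest detected wild-type probe as the lower value and are short of 1.5-fold, while the normalized log2 values of these 2 dim probes differed by 0.59 and 0.72, past it. The last 4 probes were not detected on either array, with intensities from -13.6 to 18.0. The mean over the 4 Rgs3 probes detected on at least 1 array differed by 0.38.

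Rgs2 and Rgs18 complete the R4 genes. Rgs2, which acts mainly on Gq, read 11.0 in wild type and 10.4 in the knockout at its 1 probe, with detection p-values of 0.17 and 0.163. Rgs18, known from megakaryocytes and platelets, read -3.55 and 1.93 at one probe and 2.85 and -12.2 at the other. Both genes were at the level of background on both arrays, so no fold is given for them. Of 8 platelet and megakaryocyte markers on the array, including Pf4 and Ppbp, 0 were detected.

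Rgs19, also called GAIP, a palmitoylated regulator of Gi, had the lowest difference of the set. Its 1 probe had a normalized log2 intensity of 8.84 in wild type and 8.27 in the knockout. The log2 difference was -0.57, which is 1.48-fold lower and just short of the 1.5-fold line. It ranked 556 from the lowest of the 7611 genes. With an offset of 1 in place of 16 the difference was -0.59, past the line.

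The R12 genes of the set, Rgs10 and Rgs14, were within 1.5-fold. Rgs10, a small regulator of Gi that is abundant in immune cells, read 9830 in wild type and 10431 in the knockout. After quantile normalization its log2 value was 13.31 on both arrays, since its probe held the same rank on each. With median scaling it differed by 0.12. Rgs14, a scaffold with a second G alpha binding motif and Rap binding domains, read 455.0 and 447.4, a log2 difference of -0.06, and 0.01 with median scaling.

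**Figure D1:**
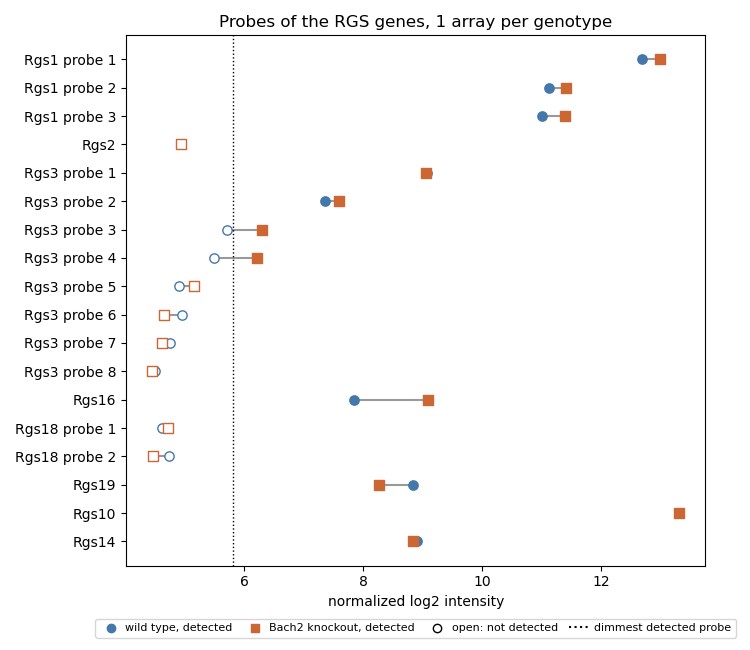
Normalized log2 intensity (horizontal axis) of the 18 probes of the RGS genes, 1 row per probe, on the wild-type array (circles) and the Bach2 knockout array (squares). Filled symbols are detected, open ones are not, and the dotted line is the dimmest detected probe of the knockout array (5.81). Rgs16 shows the widest gap among detected probes, Rgs19 the widest in the other direction, and levels are not comparable between probes.

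Of the 6 detected genes, 1 was past 1.5-fold and past 2-fold upwards and 0 were past either fold downwards. Of all genes, 8.15% were past 1.5-fold upwards and 6.77% downwards, and past 2-fold 3.27% upwards and 1.55% downwards. The median log2 difference of the 6 was -0.0048, beside -0.03 for all 7611 genes. The histogram of all genes places each of the 6 on that common scale, with Rgs16 and Rgs19 at opposite ends of the set.

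**Figure D2:**
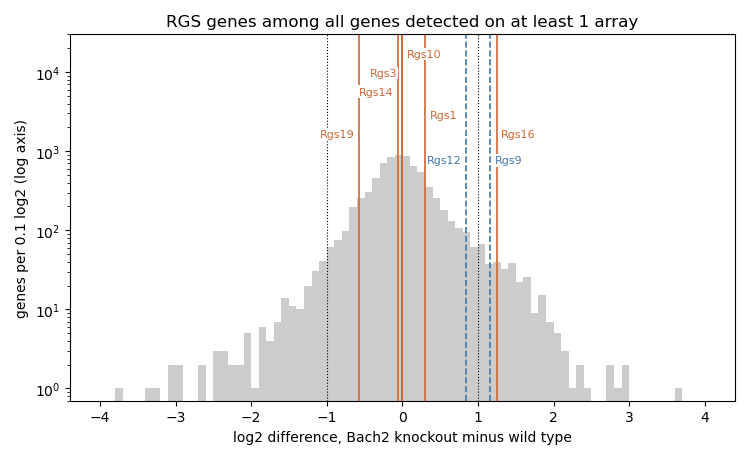
Number of genes per 0.1 log2 (vertical axis, logarithmic) against the log2 difference, Bach2 knockout minus wild type, for the 7611 genes detected on at least 1 array. Solid lines mark the 6 detected genes of the set, dashed lines mark Rgs9 and Rgs12, and dotted lines mark 2-fold. Rgs16 (1.25) lies past the upper 2-fold line, as does Rgs9 (1.16), Rgs12 (0.85) lies inside it, and Rgs19 (-0.57) lies inside the lower one. Rgs1 (0.30) lies between Rgs12 and the centre, where Rgs3, Rgs10 and Rgs14 sit.

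Other genes with an RGS domain were compared from a list chosen with earlier results of these data known. Of 15 on the array 7 were detected, 2 were at least 1.5-fold higher and 0 were at least 1.5-fold lower, with a median of 0.04. Over all 7611 genes 8.15% were at least 1.5-fold higher and 6.77% lower, and these shares stand beside each list below. Rgs9, an R7 family member known from photoreceptors and striatal neurons, read 324.7 in wild type and 775.5 in the knockout. Its log2 difference was 1.16 (2.24-fold), close in size to that of Rgs16. Rgs12, a large R12 family scaffold, was dim, at 57.0 and 116.1, and differed by 0.85 (1.80-fold), but by 0.43 on the series matrix values. Rgs13, an R4 gene of germinal centre B cells that was named after its values were seen, read -11.3 and -2.54 and was not detected.

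By family, 3 of 9 measured R4 genes were detected, 1 of 3 R7 genes, 3 of 3 R12 genes and 1 of 3 RZ genes. Among the detected genes, 1 was at least 1.5-fold higher in each of the R4, R7 and R12 families, and 0 were at least 1.5-fold lower in any of the 4 families. Each of these counts is a single gene and gives no pattern of a family. Of all 16593 named genes 7611 were detected, and of these 8.15% were at least 1.5-fold higher and 6.77% lower. The Gnb5 gene encodes the beta subunit that partners R7 proteins and was named after its values were seen. It read 66.4 and 104.2 at its brightest probe (log2 difference 0.54), while its other detected probe differed by -0.13.

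Alpha subunits include the substrates of the RGS proteins. Of 14 G protein alpha subunit genes on the array 8 were detected and 0 were past 1.5-fold in either direction, with a median of -0.28. The median of the list was 0.03 with no filter on dim probes. Over all 7611 genes 8.15% were at least 1.5-fold higher and 6.77% lower, beside which 0 of 8 gives no pattern of these genes. Gnai2, the main Gi alpha subunit of lymphocytes, read 4720 in wild type and 5231 in the knockout (0.08). Gnaq read 417.0 and 500.4 (0.23), Gna13, of another alpha subunit class, differed by -0.27, and Gnai3 was not detected at its 1 probe.

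Beta and gamma subunits differed singly. Of 17 on the array 8 were detected, 1 was at least 1.5-fold higher and 1 was at least 1.5-fold lower, with a median of 0.16. Gng2, a gamma subunit, read 502.0 and 801.8 (0.62, second probe 0.86). Gngt2, a gamma subunit first known from cone photoreceptors, read 390.4 and 254.7 (-0.62).

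Receptor genes upstream differed in both directions. Of 44 chemoattractant, lipid and orphan receptor genes on the array 26 were detected, 5 were at least 1.5-fold higher and 7 were at least 1.5-fold lower, with a median of -0.02. The 3 largest differences upwards were those of the chemokine receptor genes Cxcr6 (1.96) and Cxcr3 (1.14) and of the prostacyclin receptor gene Ptgir (1.38). The 3 largest downwards were those of Gpr18 (-1.35), of Ccr7, which guides cells into lymph nodes (-1.24), and of Gpr83 (-1.13). Cxcr4 read 2318 in wild type and 1214 in the knockout (-0.96). S1pr1, the receptor for egress from lymphoid organs, was not detected at its 1 probe. Absent RNA and a probe that does not work cannot be told apart here.

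Other regulators of the G protein cycle included genes past 1.5-fold in each direction. Of 12 detected genes 2 were at least 1.5-fold higher and 1 was at least 1.5-fold lower, with a median of -0.02. Over all 7611 genes these shares were 8.15% higher and 6.77% lower. Gpsm2, which holds G alpha subunits in their GDP form and orients the mitotic spindle, was not detected in wild type, and its knockout level was higher by at least 2.04-fold. Grk5, a receptor kinase, was dim at 46.7 and 87.8 (0.72), and Arrb1, an arrestin, read 275.6 and 171.4 (-0.68). Arrb2 differed by -0.01 and Gpsm3 by 0.05, and no probe was paired with Grk2.

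Among effectors, 15 of 27 genes were detected, 0 were at least 1.5-fold higher and 1 was at least 1.5-fold lower, with a median of -0.12. The 1 gene was Adcy6, an adenylyl cyclase, which read 83.1 in wild type and 8.96 in the knockout, where it was not detected, at least 1.75-fold lower. Over all 6 pathway lists, 10 of 76 detected genes were higher by 1.5-fold and 10 were lower, with a median of -0.04. Of all 7611 genes, 8.15% were higher by 1.5-fold and 6.77% were lower.

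**Figure D3:**
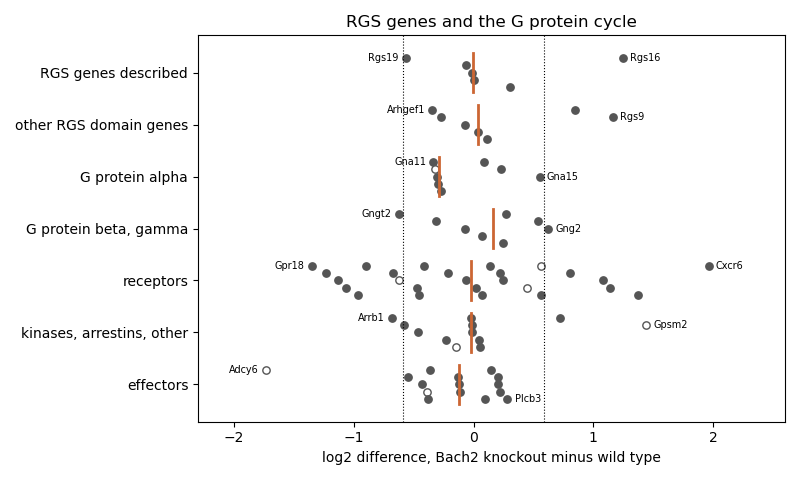
Log2 difference, Bach2 knockout minus wild type (horizontal axis), of every detected gene of the RGS set and of 6 lists of the G protein cycle, 1 point per gene, with open points, at their normalized value and not their bound, for genes detected on 1 array only. The vertical bars are medians, the dotted lines are 1.5-fold in each direction, and the lowest and highest gene of each list are named. Receptor genes span -1.35 (Gpr18) to 1.96 (Cxcr6), and alpha subunit genes span -0.34 (Gna11) to 0.55 (Gna15).

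Markers of other cell types also differed between the arrays, and in bulk RNA a change in the number of cells of a type cannot be told apart from a change in RNA per cell. Of 9 mast cell and basophil markers on the array 6 were detected and all 6 were past 1.5-fold upwards, and the list's summed intensity was 575.2 in wild type and 1736 in the knockout. Cma1, Ms4a2 and Tpsb2 were not detected. Of 7 detected NK cell markers 5 were at least 1.5-fold higher, with sums of 544.1 and 1061, while Ncr1 and Gzma were not detected. Of those higher, Klre1, Klrk1 and Tyrobp were dim and detected in the knockout only. Klra4 went the other way, at 60.2 in wild type and 14.9 in the knockout, where it was not detected (at least 1.34-fold lower).

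Among B cell markers 2 of 5 detected genes were at least 1.5-fold higher and 1 was at least 1.5-fold lower, with sums of 1628 and 2507, and Ms4a1, Pax5, Blk and Ebf1 were not detected. Of 8 detected neutrophil markers 7 were at least 1.5-fold lower, with sums of 3509 and 1045, and Ngp, Elane, Mmp8 and Cxcr2 were not detected. All 3 detected red cell markers were lower, with sums of 587.0 and 201.6. Of 9 monocyte, macrophage and dendritic cell markers 3 were detected and 0 were past 1.5-fold, with sums of 557.2 and 547.3. The part of these cells in the Rgs16 and Rgs19 values was not tested.

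The differences of the RGS genes were recomputed under each of the 10 alternative ways of processing. For Rgs16, Rgs19, Rgs10 and Rgs14, each with 1 probe, 4 of the 10 return the reported value by construction. Over the other 6, which change the values themselves, Rgs16 was higher by 0.99 to 1.32 and Rgs19 differed by -0.59 to -0.45. Rgs1 ranged from 0.30 to 0.46 and did not reach 1.5-fold in any of them. Rgs10, Rgs14 and Rgs3 crossed or touched 0, and none of the 3 reached 1.5-fold.

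**Figure D4:**
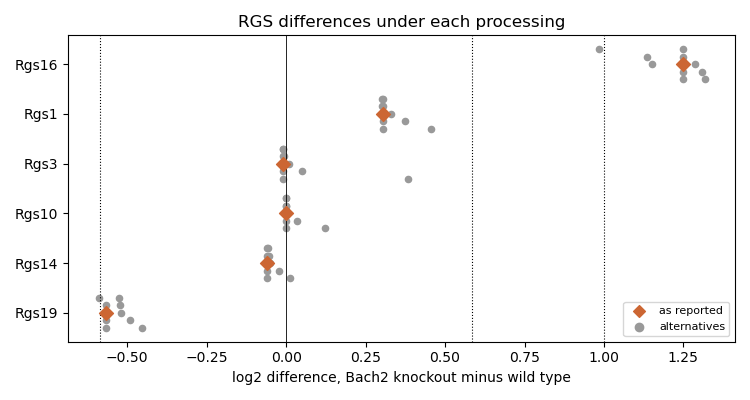
Log2 difference, Bach2 knockout minus wild type (horizontal axis), of the 6 detected RGS genes as reported (diamonds) and under the 10 alternative ways of processing (grey points, some overlapping). Dotted lines mark 1.5-fold in each direction and 2-fold upwards. Rgs16 stays between 0.99 and 1.32, and Rgs19 lies close to the lower 1.5-fold line, between -0.59 and -0.45.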

How the data were processed

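Biotin-labelled RNA of 1 wild-type and 1 Bach2 KO sample was hybridised to Illumina mouse arrays, per the labels' protocols, and no source used here names the scanner's background method. The authors' main deposited table holds non-normalized intensity values and a detection p-value for each probe and array, per the file headers. Background had been subtracted, since 30.4% and 29.5% of the values were below 0. The series matrix, also deposited by the authors, holds intensity values that rescale the main table linearly on each array (slopes 0.782 and 0.779, intercepts 86.6 and 83.3, largest residual 0.0091). It is thus linear and not centred, and its medians were 99.7 and 95.6.

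GEO's platform annotation gave the gene names, and 1719 of 25697 were unnamed. The neqc function of limma 3.58.1 (R 4.3.3) corrected the background (normexp, with noise taken from detection p-values), added an offset of 16, and returned quantile-normalized log2 values. The brightest detected probe stood for each gene. Genes detected on 1 array got a bound on their fold from the dimmest detected probe of the other array (log2 5.80 in wild type, 5.81 in the knockout). The offset pulls differences of dim probes towards 0, and quantile normalization hides a shift of all genes. The number of arrays limits the precision. The steps were run on simulated data with each probe as its own gene, so the choice of the brightest probe was not tested. Recovery of the simulated folds was required only of brighter probes.

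The RGS genes and the gene lists were chosen with earlier results of these data known. The genes named were all RGS genes of the set, a few fixed genes of the G protein cycle, and list members past 1.5-fold, or the 3 largest in each direction where over 6 were.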

Additional observations from a re-analysis of the deposited data

How the results depend on the processing

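The direction of Rgs16 and Rgs19 and the position of Rgs1, Rgs10 and Rgs14 within 1.5-fold held under the 6 alternatives that change the values (background correction, normalization, offset and source table). The other 4 (detection threshold, filter on dim probes, mean of probes, genes detected on both arrays) cannot move a gene with 1 probe and say nothing about those genes. On the series matrix values, which keep a constant background on each array by construction, Rgs16 differed by 0.99, so 0 genes of the set were past 2-fold. Over all genes there were then 181 past 2-fold in place of 367 and 594 past 1.5-fold in place of 1135, and 12 genes of the pathway lists in place of 20 were past 1.5-fold. With an offset of 1, 2 genes of the set were past 1.5-fold, as Rgs19 was added. The mean of its detected probes put Rgs3 at 0.38 in place of -0.01, since 2 dim probes entered it. With no filter on dim probes the values of Rgs2 and Rgs18 were 0.0026 and 0.10, at background level. No paired analysis was possible because each genotype has 1 array. Probes near background (Rgs3, Rgs12) carry the least certain differences, and no difference has a replicate check.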

Other observations

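The RGS genes of mouse chromosome 1 lie partly side by side. By RefSeq's order of protein-coding genes, Rgs2, Rgs13, Rgs1, Rgs21 and Rgs18 follow one another. Of these, Rgs1 was detected on both arrays, Rgs2, Rgs13 and Rgs18 were detected on neither, and Rgs21 was paired with no probe. Rgs16 lies beside Rgs8 and was 2.38-fold higher in the knockout, while Rgs8, an R4 gene of the brain, read 4.20 and 3.28 and was not detected on either array. On chromosome 11, Rgs9 lies between Axin2, which carries an RGS domain, and Gna13, an alpha subunit gene. Rgs9 was 2.24-fold higher in the knockout, and its neighbours were within 1.5-fold, with log2 differences of -0.27 for Axin2 and -0.27 for Gna13. Rgs8 and Axin2 were named after their values were seen, and whether neighbours share regulation was not tested.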
